A study of Mus musculus with 2 samples.

Results

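The lysosome was examined here through 52 genes that encode its hydrolases, its membrane proteins and its proton pump, with the transcription factors that act on such genes. The genes were chosen by name and function, not by a measured value, but with earlier results of these data known. All 52 were found among the 32285 genes of the deposited matrices. They fall into 12 proteases, 7 glycosidases, 5 proteins of lipid and sphingolipid handling, 8 membrane proteins, 7 subunits of the V0 sector and 8 of the V1 sector of the pump, 2 pump accessory proteins and 3 transcription factors. The cells were live (7AAD-) CD45+ leukocytes of the liver, measured by 5' single-cell RNA sequencing. Male C57Bl6/J recipients had received lethal irradiation and then marrow of either Trem2-/- or Trem2+/+ littermate donors. Both groups recovered for 6 weeks and then ate a methionine/choline-deficient (MCD) diet, which induces steatohepatitis, for 4 weeks. Cells of 4 mice were pooled in each group, and each pool gave 1 library. The design therefore holds no untreated liver, no mouse can be told from another within a library, and no difference between the genotypes has a replicate check. Intervals below are exact 95% counting intervals on summed unique molecular identifiers (UMIs), and they cover neither the spread between mice nor that between cells.

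Lysosomal hydrolases are made in the secretory pathway, sorted to the lysosome and activated by its acidity. The vacuolar ATPase supplies that acidity: its V1 sector splits ATP in the cytosol and its V0 sector carries protons across the membrane. Tfeb, Tfe3 and Mitf encode related factors that bind short E-box sequences near many lysosomal genes. In phagocytes the compartment degrades engulfed cells and lipid. Gpnmb encodes a transmembrane glycoprotein that marks lipid-associated macrophages, and Trem2 encodes a lipid-sensing receptor of such cells.

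The libraries held 25288032 UMIs (Trem2-/-) and 27238586 UMIs (Trem2+/+), and 5973 and 6596 barcodes passed the filters, at medians of 2932 and 2492 UMIs. They shared 56 barcode sequences. Cells were clustered without the 52 genes, Gpnmb or Trem-family genes among the variable genes, and clusters were named from marker lists. Macrophage-like cells numbered 397 in the Trem2-/- library (6.65% of kept cells) and 1355 in the Trem2+/+ library (20.5%). Kupffer-like cells numbered 164 and 137, and Ly6C-high monocyte-like cells 380 and 500. Trem2 stood at 34.9 CPM, the class's UMIs of a gene scaled to a common total, in Trem2-/- and 599.9 CPM in Trem2+/+ macrophage-like cells, in the direction of the labels. The sources used here do not give the extent of the deletion, and cells that the irradiated host kept cannot be told from donor cells. Endothelial-like cells made up 16.3% and 10.3% of the kept cells of this CD45+ sort. Clusters that fitted no marker list held 11.5% and 7.94% of the cells and are not described.

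The letters upstream of the members bear on the question of which of them carry the E-box, CACGTG, to which the Tfeb family binds. RefSeq promoter windows (GRCm38.p6, 250 bases before to 50 after an annotated start) existed for 44 of the 52 members. CACGTG, which reads the same on both strands, lay in a window of 15 of the 44 (34.1%), against 8.09% of 27025 genes with such a window. The 7-letter form TCACGTG, searched on both strands and always overlapping CACGTG, lay in 13 of 44 members (29.5%) and in 4.29% of all genes. The 10-letter CLEAR palindrome, which holds CACGTG at its centre, was searched as an exact match only. It lay in none of the 44 and in 0.37% of all genes. At so low a share, a count of none cannot set the members apart from other genes, and near matches were not counted. Some members have several annotated starts, so the 44 members have 56 windows, and 34 of these start within 100 bases of the GENCODE M21 gene start, 8 of them with CACGTG. The 250 bases upstream of the start are printed for 5 members: Ctsd and Gla, with 2 matches each, Lamp1, with 4, and Ctsk and Ctsc, with none. Ctsk and Ctsc are shown because they lay at opposite ends of the Gpnmb comparison below. Capitals mark CACGTG.
Ctsd, chr7:142387828-142388077, minus strand: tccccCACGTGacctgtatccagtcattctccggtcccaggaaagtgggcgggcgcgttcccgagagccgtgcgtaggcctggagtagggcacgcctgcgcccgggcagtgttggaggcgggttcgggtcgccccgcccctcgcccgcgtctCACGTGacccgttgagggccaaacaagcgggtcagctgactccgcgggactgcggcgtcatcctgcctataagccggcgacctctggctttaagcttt
Gla, chrX:134601006-134601255, minus strand: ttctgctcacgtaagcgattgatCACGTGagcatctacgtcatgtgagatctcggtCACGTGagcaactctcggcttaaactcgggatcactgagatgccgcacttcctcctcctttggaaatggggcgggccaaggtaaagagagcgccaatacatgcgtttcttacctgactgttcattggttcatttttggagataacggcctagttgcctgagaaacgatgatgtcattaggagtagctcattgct
Lamp1, chr8:13158911-13159160, plus strand: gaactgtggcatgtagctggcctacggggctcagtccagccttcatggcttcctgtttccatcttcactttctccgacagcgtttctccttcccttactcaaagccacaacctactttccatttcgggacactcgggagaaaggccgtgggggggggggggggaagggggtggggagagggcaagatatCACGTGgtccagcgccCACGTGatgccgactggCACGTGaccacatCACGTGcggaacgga
Ctsk, chr3:95498960-95499209, plus strand: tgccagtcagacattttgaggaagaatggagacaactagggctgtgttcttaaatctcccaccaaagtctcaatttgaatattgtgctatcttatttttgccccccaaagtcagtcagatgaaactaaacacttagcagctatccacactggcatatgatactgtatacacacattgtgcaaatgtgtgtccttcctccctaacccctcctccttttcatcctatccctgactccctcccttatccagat
Ctsc, chr7:88277835-88278084, plus strand: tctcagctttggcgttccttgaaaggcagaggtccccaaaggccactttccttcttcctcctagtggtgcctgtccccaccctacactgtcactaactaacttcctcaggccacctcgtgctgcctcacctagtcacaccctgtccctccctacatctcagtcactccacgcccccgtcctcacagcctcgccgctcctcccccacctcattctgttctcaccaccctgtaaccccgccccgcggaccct
The Ctsd matches begin 245 and 98 bases before the start, those of Gla 227 and 194, and those of Lamp1 61, 45, 28 and 15. The annotated starts of Ctsd and Gla lie 211 and 120 bases inside the GENCODE gene, those of Lamp1 and Ctsc coincide with it, and that of Ctsk lies 46 bases before it. A match describes letters only.

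Among the 10 classes with 100 or more cells per library, Kupffer-like, macrophage-like and Ly6C-high monocyte-like cells spent the largest shares of their transcripts on these genes. In Kupffer-like cells the 52 genes together took 3.36% of UMIs (3.32 to 3.40) in the Trem2-/- library and 3.43% (3.38 to 3.48) in the Trem2+/+ library. In macrophage-like cells they took 3.14% (3.12 to 3.16) and 3.49% (3.48 to 3.51). The order of these neighbouring classes thus differed between the libraries, and their cells overlapped widely: the 10th to 90th percentile of single Trem2+/+ cells ran from 2.31% to 4.73% in Kupffer-like and from 1.47% to 4.79% in macrophage-like cells. Ly6C-high monocyte-like cells followed at 1.87% (1.85 to 1.89) and 1.86% (1.84 to 1.87), and the smaller plasmacytoid dendritic-like class of 42 and 69 cells lay level with them at 1.87% and 1.83%. Conventional dendritic-like cells stood at 1.47% and 1.40% (cDC1) and at 1.36% and 1.33% (cDC2), endothelial-like cells at 1.09% and 1.11%, and neutrophil-like cells at 0.936% and 0.997%. B, NK/ILC1 and T cell-like cells lay lowest, between 0.424% and 0.528% in either library. Psap, Ctss and Ctsb supplied 41.4% of the members' UMIs in Trem2-/- and 43% in Trem2+/+ macrophage-like cells, so the sums rest largely on these 3 genes.

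**Figure D1:**
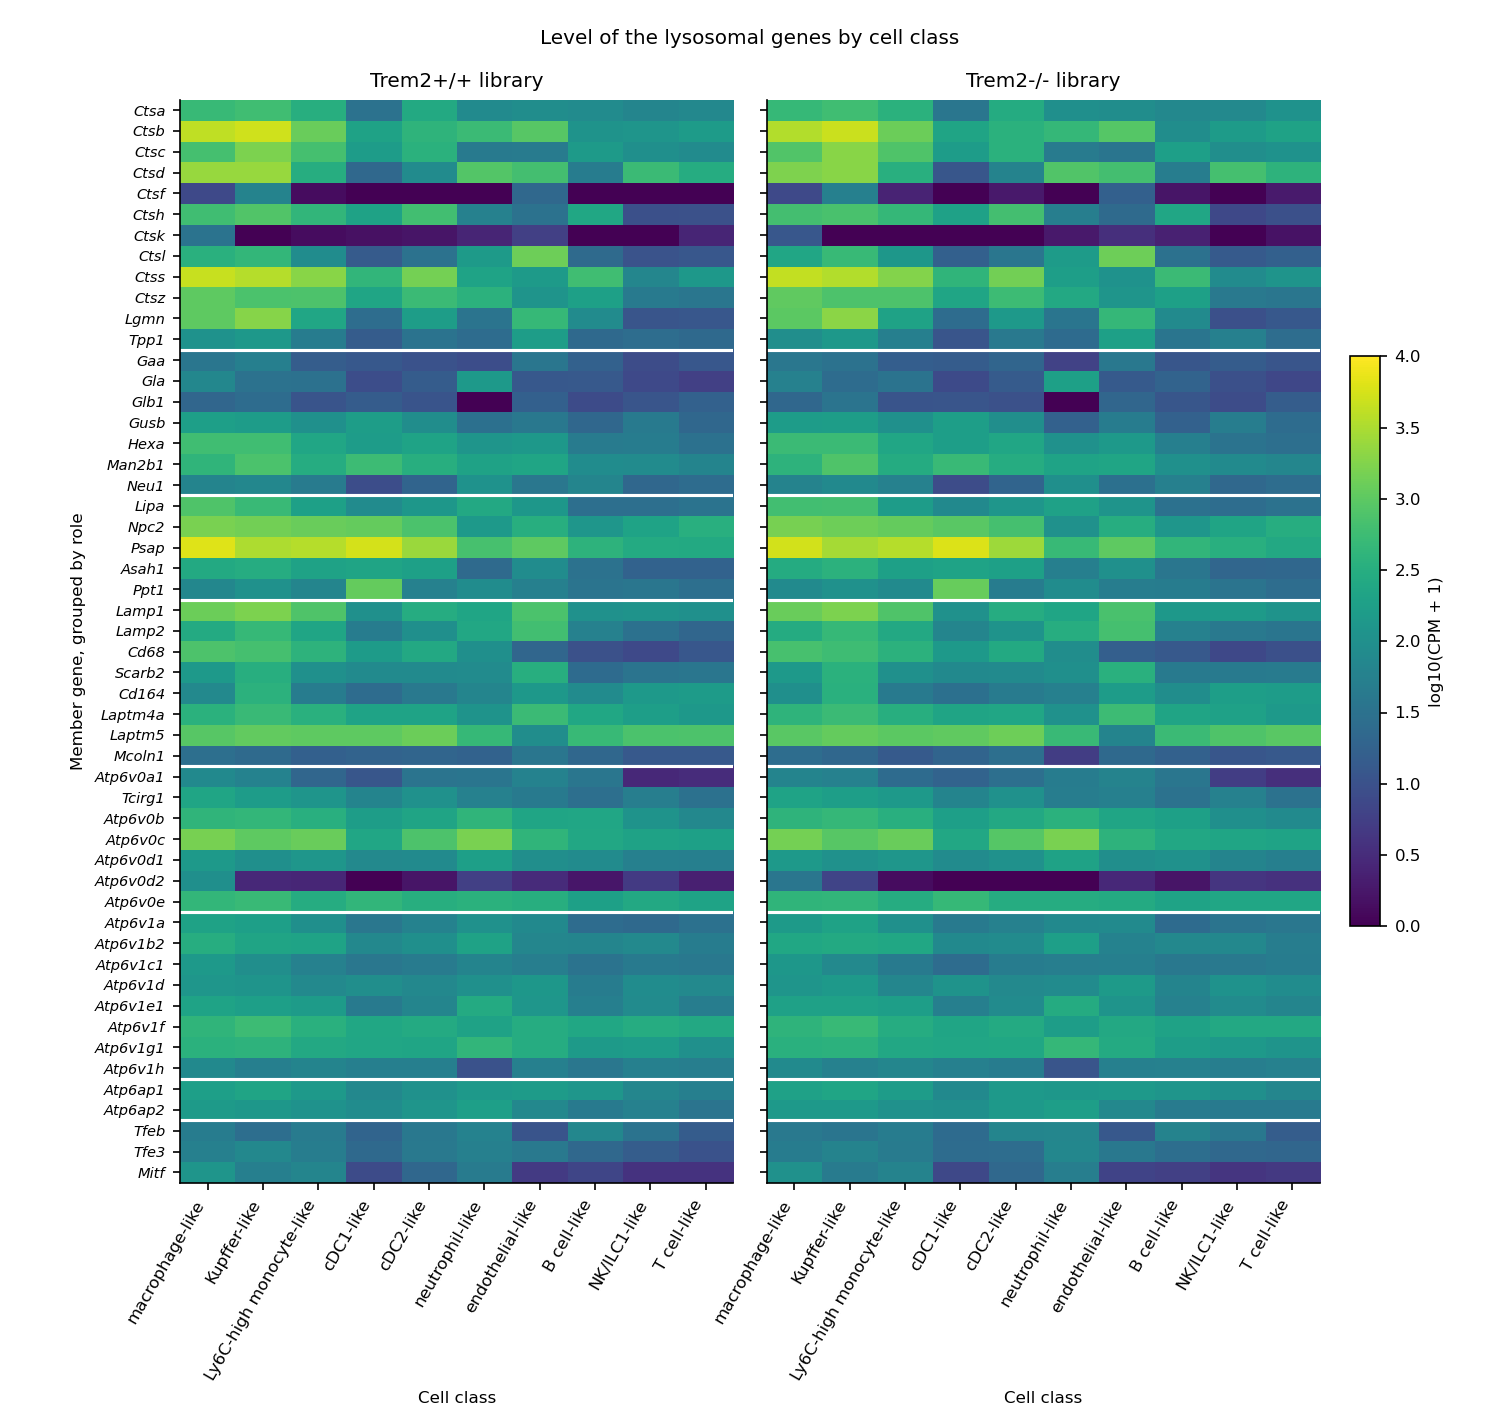
Level of each of the 52 genes, as log10(CPM + 1) by colour, in the 10 cell classes with 100 or more cells per library, with the Trem2+/+ library on the left and the Trem2-/- library on the right. White lines separate the roles. Most rows are brightest in the macrophage-like and Kupffer-like columns. Ppt1 is brightest in cDC1-like cells and Ctsl in endothelial-like cells, and Ctsk and Atp6v0d2 are dark in all but the macrophage-like column.

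Most members were highest in macrophage-like or Kupffer-like cells, but 17 of 52 in the Trem2+/+ and 21 of 52 in the Trem2-/- library were not. In the Trem2+/+ library 18 genes were highest in macrophage-like and 17 in Kupffer-like cells, 7 each in endothelial-like and neutrophil-like cells, and 1 each in cDC1, cDC2 and B cell-like cells. The Trem2-/- library gave the same highest class for 11 of the 18 and 14 of the 17. Genes that peaked in neutrophil-like cells were mostly ubiquitous pump subunits (Atp6v0c, Atp6v0d1, Atp6v1e1, Atp6v1g1 and the accessory gene Atp6ap2) with the glycosidases Gla and Neu1, and all 7 did so in both libraries. Those that peaked in endothelial-like cells of the Trem2+/+ library were the proteases Ctsl and Tpp1, the V1 subunit Atp6v1d and the membrane proteins Lamp2, Scarb2, Laptm4a and Mcoln1, a calcium channel. In the Trem2-/- library 5 of these 7 did so, while Scarb2 was highest in Kupffer-like and Mcoln1 in cDC2-like cells. In that library Gaa was also highest in endothelial-like cells, Tfeb and Tfe3 in neutrophil-like cells, and Gusb, Psap and Atp6v0e in cDC1-like cells. Some Trem2+/+ peaks were close to ties: Scarb2 stood at 316.1 CPM against 315.7 CPM in Kupffer-like cells, and Atp6v1d at 128.5 CPM against 127.1 CPM in macrophage-like cells. Laptm5 was highest in cDC2-like cells, at 1317 and 1281 CPM.

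Among the proteases, the aspartic protease Ctsd (chr7:142375911-142388038, minus strand, mm10) stood at 1706 CPM in Trem2-/- and 2456 CPM in Trem2+/+ macrophage-like cells, and at 1978 and 2418 CPM in Kupffer-like cells. The dipeptidyl peptidase Ctsc, which activates granule serine proteases, was highest in Kupffer-like cells: 1977 and 1648 CPM in Kupffer-like cells against 821 and 658 CPM in macrophage-like cells. Ctsf was likewise highest in Kupffer-like cells, at 54.4 and 59.7 CPM, and stood at 6.53 and 6.62 CPM in macrophage-like cells. Ctsl was highest in endothelial-like cells: 1299 and 1323 CPM there, against 235 and 349 CPM in macrophage-like cells. The cysteine protease Ctsk (chr3:95499256-95509362, plus strand, mm10), best known from osteoclasts, was detected in macrophage-like cells at 11.1 and 32.0 CPM, and no Ctsk UMI was found in either Kupffer-like pool. In the next class, endothelial-like cells, Ctsk stood at 2.50 and 4.80 CPM.

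Other members with a class of their own came from several roles. Ppt1, a thioesterase that removes palmitate from proteins, reached 1161 CPM (Trem2-/-) and 1120 CPM (Trem2+/+) in cDC1-like cells, and the next class of the Trem2+/+ library, Kupffer-like, stood at 106 CPM. The saposin precursor Psap was also high in cDC1-like cells, at 6236 and 5589 CPM, beside 5319 and 6271 CPM in macrophage-like cells. Atp6v0d2 (chr4:19876841-19922605, minus strand, mm10), the tissue-restricted d subunit of the V0 sector, stood at 36.9 and 96.1 CPM in macrophage-like cells, and the next class of the Trem2+/+ library, neutrophil-like, at 4.655 CPM (6 UMIs). Its widely expressed counterpart Atp6v0d1 lay between classes without such a gap, at 141 and 144 CPM in macrophage-like and 199 and 178 CPM in neutrophil-like cells. Tfeb had no class of its own: it was highest in B cell-like cells of the Trem2+/+ library, at 70.4 CPM. In the Trem2-/- library it was highest in neutrophil-like cells, at 67.3 CPM. Mitf peaked in macrophage-like cells of either library, at 106 and 122 CPM.

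Set against pooled T, B and NK/ILC1-like cells of the same library, nearly every member was higher in macrophage-like cells. In the Trem2+/+ library 48 of 50 members that reached 20 CPM on either side were higher by 1.5-fold or more, where 25.4% of all genes tested were, and 1 was lower, where 32.6% were. The members' median log2 ratio was 2.67 and that of all genes -0.16. In the Trem2-/- library 46 of 50 were higher (23.1% of all genes), 1 was lower (35%), and the median was 2.20 against -0.24 for all genes. The macrophage sialomucin Cd68 had the largest Trem2+/+ ratio, at 753 CPM against 9.81 CPM, a log2 ratio of 6.26 (5.88 to 6.67). Atp6v0d2 followed at 5.90, Ctsk at 5.16, the asparaginyl endopeptidase Lgmn at 5.11, Mitf at 5.10, Ctsb at 4.91, Lipa at 4.68 and Ctsl at 4.67. The proteases as a group had a median of 3.79 and the V1 sector one of 1.71. The sialomucin Cd164 was the member on the lymphoid side, at 74.7 against 136 CPM, a log2 ratio of -0.87. Laptm5, a lysosomal protein of blood cells, had the next lowest ratio at 0.37, followed by Tfeb (0.62) and the V1 subunit Atp6v1f (0.68).

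Within macrophage-like cells, members were higher where Gpnmb was higher, and a few of them by far more than the rest. Each cell of at least 1000 UMIs was thinned to 1000 UMIs and placed by its Gpnmb UMIs into a bin of 0, of 1 to 2 or of 3 or more. The thinned cells only set the bins, and levels come from all UMIs of the cells in a bin. In the Trem2+/+ library the bins held 626, 223 and 177 cells, and the 52 genes took 2.91%, 3.86% and 4.76% of their UMIs. Of 51 members tested, 18 were at least 1.5-fold higher in the highest bin than in the bin of 0 (7.19% of all genes) and 1 was lower (8.65%). In all, 46 of 51 lay above 0 where 49.7% of all genes did, with a median of 0.37 against -0.004.

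Ctsk stood at 6.06, 31.0 and 102 CPM over the 3 Trem2+/+ bins, giving a log2 ratio of 4.07 (3.47 to 4.72) between the outer bins. Atp6v0d2 stood at 19.8, 83.4 and 304 CPM, a log2 ratio of 3.94 (3.61 to 4.29). These 2 genes stood apart from the other members, the next of which was Ctsl at 201, 371 and 712 CPM, or 1.82 (1.70 to 1.95). Ctsd stood at 1546, 2835 and 4485 CPM, or 1.54 (1.49 to 1.58). The highest bin held 13.1% of all macrophage-like cells and 21.7% of their UMIs, but 68.9% of the Ctsk UMIs and 68.6% of the Atp6v0d2 UMIs. Even there these transcripts were uneven: Ctsk was found in 44 and Atp6v0d2 in 99 of the 177 cells.

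The other roles followed with smaller ratios. Among glycosidases, 3 of 7 passed 1.5-fold: Gla, which cleaves terminal galactose from glycolipids (49.4, 81.5 and 113 CPM; 1.19), Hexa (0.81) and Gusb (0.69). In lipid handling, Psap stood at 4761, 7246 and 9516 CPM (0.999; 0.97 to 1.03), and the acid lipase Lipa, which frees cholesterol and fatty acids from esters, at 654, 868 and 1084 CPM (0.73). In the membrane group Cd68 (0.93) and the lysosomal coat protein Lamp1 (0.62) passed, and 6 of 8 did not. The pump moved in part: Atp6v0a1 (1.16, where its paralogue Tcirg1 had 0.50) beside Atp6v0d2 in V0, and Atp6v1a (1.05), Atp6v1c1 (0.99), Atp6v1e1 (0.80) and Atp6v1b2 (0.71) in V1, while Atp6v0b, Atp6v0c, Atp6v0d1 and Atp6v0e lay between 0.31 and 0.49. The transcripts of the factors themselves hardly differed, at 0.33 for Tfeb (-0.04 to 0.69), 0.01 for Tfe3 and -0.08 for Mitf.

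Ctsc ran the other way, at 811, 596 and 339 CPM, a log2 ratio of -1.26 (-1.39 to -1.13). Cd164 (-0.55), Ppt1 (-0.39), Scarb2 (-0.18) and Mitf were the remaining members below 0. The cells of the bins also differed in other respects. Summed Kupffer markers stood at 1620, 1303 and 477 CPM and summed Ly6C-high monocyte markers at 1622, 1156 and 810 CPM from the lowest to the highest bin. The share of cells from cluster 8, led by Gpnmb, Gdf15, Mmp12 and Fabp5, went from 33.9% through 42.2% to 61.6%, and the median depth from 6698 through 7181 to 8992 UMIs. The part of these differences in the ratios was not tested.

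In Trem2-/- macrophage-like cells the sum also climbed with Gpnmb, on far fewer cells. Their bins held 240, 54 and 18 cells, and the 52 genes took 2.80%, 3.89% and 4.95% of the UMIs. Of 50 members tested, 21 were at least 1.5-fold higher in the highest bin (21.4% of all genes) and 3 were lower (15.1%), with a median of 0.43 against 0.08 for all genes. With 18 cells in the highest bin, many genes pass 1.5-fold, so the members' count is read against that larger share. Ctsd stood at 1125, 2715 and 5110 CPM (2.18; 2.07 to 2.29) and Psap at 4305, 7872 and 9957 CPM (1.21). Atp6v0d2 stood at 10.6, 40.9 and 289 CPM (4.77; 4.01 to 5.59), from 7 of the 18 cells in the highest bin, and 1 cell gave 21 of the 56 UMIs. Ctsc was again lower, at 923, 508 and 459 CPM (-1.01). Ctsk had 7, 17 and 4 UMIs in the 3 bins, or 3.70, 36.6 and 20.6 CPM, with no higher level in the highest bin than in the middle one.

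Over single thinned cells, 16 of 50 Trem2+/+ members and 17 of 50 Trem2-/- members had a Spearman's rho with Gpnmb of 0.1 or more, as did 2.31% and 5.83% of all genes. The rho over 1026 Trem2+/+ and 312 Trem2-/- cells was 0.45 and 0.44 for Psap, 0.44 and 0.32 for Ctsd, 0.33 and 0.39 for Ctss and 0.30 and 0.27 for Ctsb. For Atp6v0d2 it was 0.21 and 0.14, and for Ctsc -0.18 and -0.12. The cells share a library and a fixed depth of 1000 UMIs. The share over all genes was not matched to the members for level, which limits rho in sparse genes. Psap, Ctss and Ctsb, with high rho, were also the members with the most UMIs. Members with and without CACGTG overlapped in the log2 ratio of the highest bin over the bin of 0 in the Trem2+/+ library. The 14 members with CACGTG had a median of 0.46 (lowest member -0.55, highest 1.82). The 29 without it had a median of 0.31 (lowest member -1.26, highest 4.07).

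**Figure D2:**
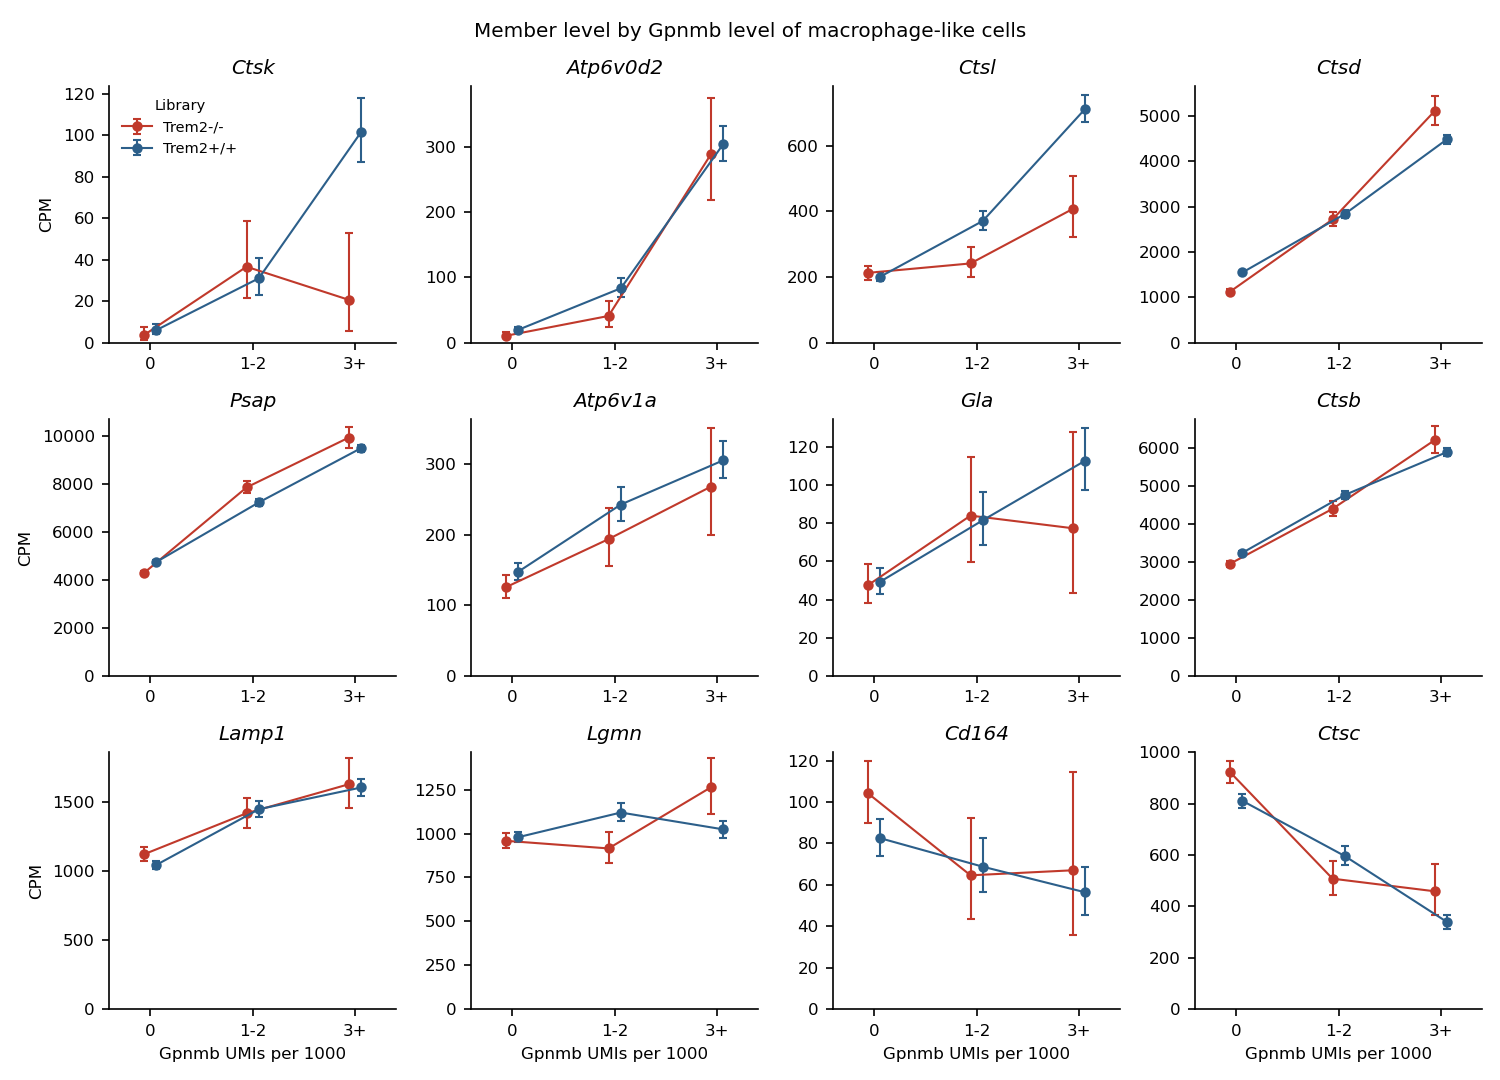
Level in CPM (each vertical axis from 0, scaled per gene) of 12 members in macrophage-like cells with 0, 1 to 2 or 3 or more Gpnmb UMIs after thinning to 1000 UMIs. Points are summed levels of 1 library each and bars are exact 95% Poisson intervals. Ctsd, Psap and Ctsb climb in both libraries, Ctsk and Ctsl reach higher levels in the Trem2+/+ library, and Ctsc declines in both.

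Between the genotypes, macrophage-like cells differed by 1.5-fold or more in 2 of the 51 members tested, Ctsk and Atp6v0d2, both lower in the Trem2-/- library (1.27% of all genes were lower by that much), and in none was the Trem2-/- library higher (1.85% of all genes). Ctsk stood at 11.1 CPM (29 UMIs) in the Trem2-/- and 32.0 CPM (251 UMIs) in the Trem2+/+ library, so the log2 ratio was -1.52 (-2.13 to -0.96). Atp6v0d2 stood at 36.9 CPM (96 UMIs) and 96.1 CPM (755 UMIs), a log2 ratio of -1.38 (-1.71 to -1.08). Both had the lower level in the Trem2-/- library in clusters 8 and 11 alike, at -1.34 and -1.92 for Ctsk, the latter on 4 against 41 UMIs, and at -1.36 and -1.21 for Atp6v0d2. Averaged over cells rather than summed, the ratios were -0.82 for Ctsk and -1.49 for Atp6v0d2, over all deposited barcodes -2.26 and -1.20, and with clusters weighted equally -1.06 and -1.35. In these 3 settings Ctsk averaged 17.3, 6.61 and 18.3 CPM, under the limit of 20 CPM, so it was not counted there, while Atp6v0d2 was. A single cell held 64 of the 755 Trem2+/+ Atp6v0d2 UMIs and another 24 of the 251 Ctsk UMIs.

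The shares of cells with a UMI were low. After thinning to 1000 UMIs, 0.641% of Trem2-/- (0.0777 to 2.30) and 2.14% of Trem2+/+ macrophage-like cells (1.35 to 3.23) held a Ctsk UMI, against 0.0929% and 0.112% of lymphoid-like cells, by exact binomial intervals. For Atp6v0d2 the shares were 3.21% (1.55 to 5.82) and 4.29% (3.13 to 5.71), against 0.139% and 0.169%. Unthinned, 5.29% and 6.86% of cells held Ctsk and 8.06% and 14.6% held Atp6v0d2, at median depths of 6216 and 4835 UMIs, where lymphoid-like cells (0.176% and 0.259%; 0.616% and 0.465%) had 2988 and 2404 UMIs. The intervals cover counting error only, and with 1 library a group the shares have no test between the genotypes.

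Most other members were slightly lower in the Trem2-/- library. Of the 51 tested, which are all but Ctsf, 38 lay below 0, where 50.8% of all genes did, with a median of -0.08 against -0.003. Among proteases, Ctsl stood at 235 and 349 CPM (-0.57; -0.70 to -0.44), Ctsd at 1706 and 2456 CPM (-0.53; -0.57 to -0.48) and Ctsb at 3451 and 4122 CPM (-0.26), while Ctsc stood at 821 and 658 CPM (0.32; 0.25 to 0.39). The Ctsl difference lay in cluster 8, at 185 against 449 CPM (-1.28), with 268 against 279 CPM in cluster 11 (-0.06). Its size over the class depended on the processing. The Ctsl ratio was -0.08 over all deposited barcodes, -0.15 averaged over cells and -0.69 with a stricter cell filter. Ctsd was lower in clusters 4, 8 and 11 alike (-0.53, -0.63 and -0.47).

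Of the lipid group, Lipa stood at 612 and 784 CPM (-0.36; -0.44 to -0.28) and Psap at 5319 and 6271 CPM (-0.24; -0.26 to -0.21), Npc2, which hands cholesterol on to the membrane protein Npc1, differed by -0.07, and Ppt1 by 0.24. The glycosidases ran from -0.33 for Gla to 0.05 for Gaa. Membrane proteins had a median of 0.01, from -0.13 for Cd68 to 0.37 for Cd164. All 7 V0 genes and 7 of 8 V1 genes lay below 0, with medians of -0.10 and -0.11. The paralogous a subunits Atp6v0a1 and Tcirg1 had ratios of -0.35 and -0.15, and of the A and B subunits, which form the ring that splits ATP, Atp6v1a stood at 148 and 202 CPM (-0.45) and Atp6v1b2 at 241 and 308 CPM (-0.35). Mitf, Tfe3 and Tfeb lay between -0.24 and -0.20, and the intervals of Tfe3 and Tfeb included 0.

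Other features of the macrophage-like pools moved with genotype. Gpnmb stood at 701 CPM in the Trem2-/- and 1539 CPM in the Trem2+/+ library. The dissociation-stress list, all 20 of its genes detected, summed to 16045 and 14576 CPM, with 18 of 20 genes above 0 and Hspa1b (1.59) and Hspa1a (1.31) highest. Summed Kupffer markers stood at 1464 and 1329 CPM, monocyte markers at 1645 and 1348 CPM and hepatocyte markers at 339 and 414 CPM. Cluster 8 supplied 37.8% and 43.2% of the class's UMIs and cluster 11 57.7% and 51.8%. The part of the stress genes and of these markers in the ratios was not tested.

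**Figure D3:**
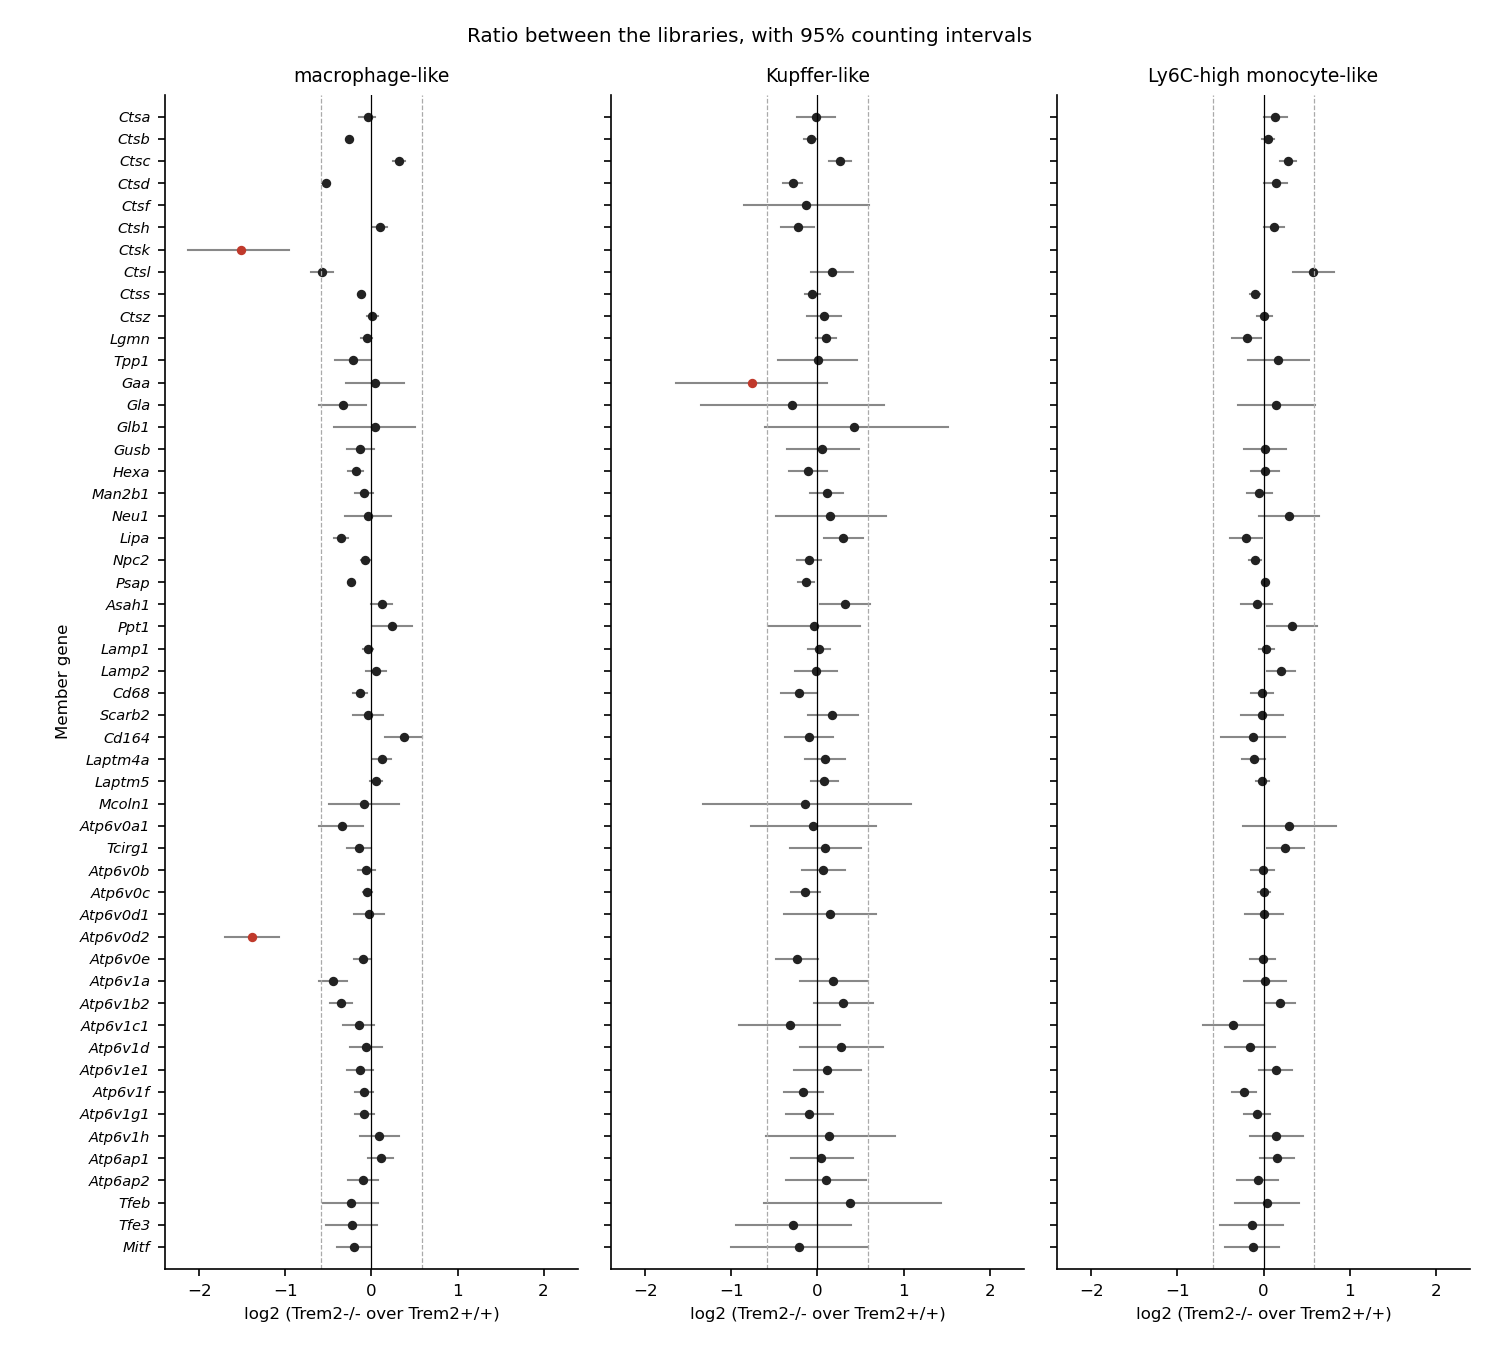
Log2 ratio of the Trem2-/- over the Trem2+/+ library for each member that averaged 20 CPM or more over both libraries, in macrophage-like, Kupffer-like and Ly6C-high monocyte-like cells. Bars are exact 95% counting intervals, dashed lines mark 1.5-fold and red points lie past it. Ctsk and Atp6v0d2 lie far to the left in macrophage-like cells and have no point in the other classes, where they were under that limit.

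In Kupffer-like and monocyte-like cells the members centred near 0. In Kupffer-like cells 0 of 50 members were 1.5-fold higher in the Trem2-/- library (10.8% of all genes) and 1 was lower (6.09%): the acid glucosidase Gaa, at 30.7 and 52.0 CPM on 22 and 27 UMIs, a log2 ratio of -0.76 whose interval (-1.64 to 0.11) included 0 and whose sign turned under other cell filters or clusterings. The median was 0.01 against 0.05 for all genes. Ctsd stood at 1978 and 2418 CPM (-0.29; -0.40 to -0.18), Ctsc at 1977 and 1648 CPM (0.26; 0.14 to 0.39) and Lipa, on the Trem2-/- side here, at 628 and 510.2 CPM (0.30; 0.08 to 0.52). In Ly6C-high monocyte-like cells 0 of 46 were higher (1.32%) and 0 lower (1.24%), with a median of 0.01. Ctsl came closest, at 132 and 88.6 CPM (0.58; 0.34 to 0.82), in the direction opposite to macrophage-like cells. Gpnmb stood at 36.3 and 63.5 CPM in Kupffer-like and at 28.1 and 21.5 CPM in monocyte-like cells. Whether the ratios differ between classes has no test with 1 library a group.

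Compared within Gpnmb bins, the members' sums were close. Weighting the 3 bins equally, the 52 genes took 3.88% of UMIs in the Trem2-/- and 3.84% in the Trem2+/+ library, where the whole classes had 3.14% and 3.49%. The bins themselves were filled differently by the macrophage-like cells of at least 1000 UMIs, 312 in the Trem2-/- and 1026 in the Trem2+/+ library. The bins of 0, of 1 to 2 and of 3 or more held 76.9%, 17.3% and 5.77% of these Trem2-/- cells. They held 61.0%, 21.7% and 17.3% of these Trem2+/+ cells. Of 51 members, 1 was then higher by 1.5-fold (2.84% of all genes) and 1 lower (1.85%), 31 lay above 0 where 51.7% of all genes did, and the median was 0.02.

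Single members behaved differently under equal bins. Ctsd, at -0.53 over all cells, stood at 0.01, with -0.46, -0.06 and 0.19 in the 3 bins, and Psap at 0.04. Atp6v0d2 stood at -0.26, with -0.91 (-1.69 to -0.19), -1.03 (-1.80 to -0.33) and -0.08 (-0.50 to 0.32) in the bins, and at -0.68 with cells thinned to 2000 UMIs. Its highest Trem2-/- bin rests on 56 UMIs in a bin of 18 cells, with a large part from a single cell, as given above. The equal-bin value of Atp6v0d2 therefore depends on few cells, and its value without that cell was not computed. Ctsk was the member that remained lower by 1.5-fold, at 20.3 and 46.2 CPM (-1.19), with -0.71, 0.24 and -2.30 in the bins, and its difference in the highest bin rests on 4 against 173 UMIs. Ctsl stood at -0.58, with 0.08, -0.62 and -0.81. The galactosidase Glb1 was the member that was higher (0.62), on 13 UMIs in the highest Trem2-/- bin. Gpnmb was itself measured in the cells it sorted and differed between the libraries, so these values describe cells of like Gpnmb level and do not separate genotype from the mix of cells.

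**Figure D4:**
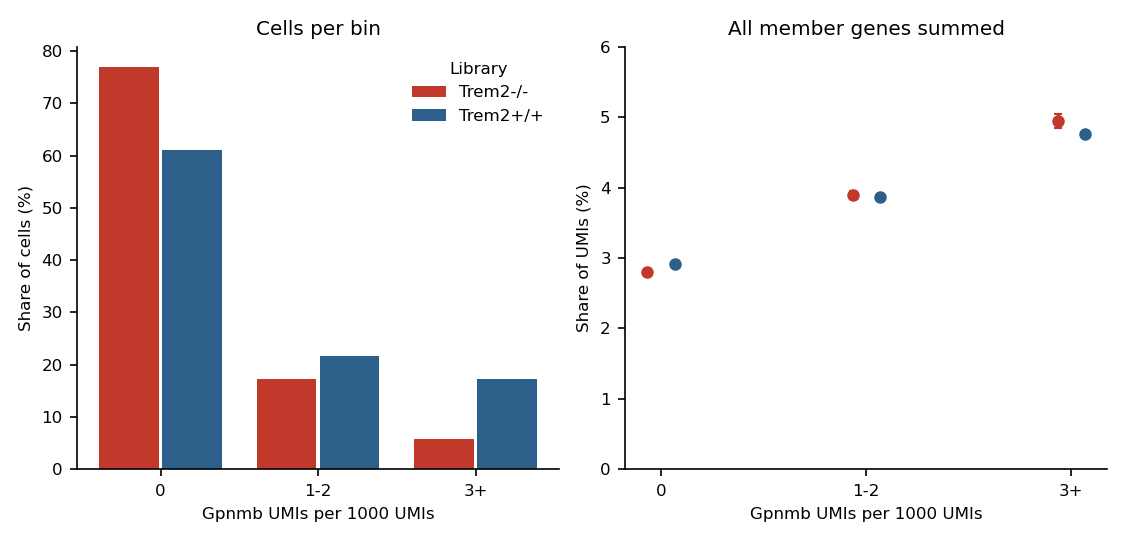
Left, share of each library's macrophage-like cells of at least 1000 UMIs in the 3 Gpnmb bins, as bars from 0. Right, share of UMIs taken by the 52 genes in each bin, with exact 95% intervals that are mostly smaller than the points. The libraries differ in how cells fill the bins, and the summed level climbs from 2.80% to 4.95% (Trem2-/-) and from 2.91% to 4.76% (Trem2+/+).

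Few of the related genes outside the 52 passed 1.5-fold between the genotypes in macrophage-like cells, where 1.85% of all genes were higher and 1.27% lower. Of 22 other lysosomal enzymes tested, 2 were higher in the Trem2-/- library and 0 lower: the carboxypeptidase Cpq (43.8 and 25.1 CPM; 0.80) and Plbd1 (203 and 132 CPM; 0.62). Their median was 0.04, where that of the 51 members was -0.08. Of 12 other membrane proteins, 0 were higher and 1 was lower, the tetraspanin Cd63 (800.4 and 1254 CPM; -0.65). Of 15 genes that sort proteins to the lysosome, 0 were higher and 1 was lower, the mannose 6-phosphate receptor Igf2r (34.9 and 61.0 CPM; -0.80). Of 10 genes of mTORC1 docking and Tfeb regulation and of 12 autophagy genes, none passed in either direction, with medians of -0.20 and -0.11. Only 1 of 7 other proton pump genes (Atp6v0a2, 0.27) and 2 of 8 cystatins (Cst3, -0.06, and Cstb, -0.30) were abundant enough to test. In the Trem2+/+ Gpnmb comparison the sulfatase Galns (14.4 CPM in the bin of 0 and 39.9 CPM in the highest; 1.47) and Cd63 (821 and 2267 CPM; 1.46) had the 2 highest ratios among these lists, and Plbd1 (174 and 51.7 CPM; -1.75) and Atp6v0a2 (35.2 and 19.4 CPM; -0.86) the 2 lowest.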

How the data were processed

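Libraries from the 10x Genomics 5' protocol, 1 per marrow genotype, were analysed. The deposited matrices hold UMI counts per gene and barcode, made with Cell Ranger 5.0.1 on mm10 per the submitters' processing notes. From these counts, barcodes were kept from 200 detected genes upward if mitochondrial UMIs did not exceed 10%, which left 93.9% and 94.1%. Scrublet marked 5 and 2 barcodes, too few to have worked; these were removed, and other doublets may remain. Cells of both libraries were clustered with scanpy 1.11.5 (2000 variable genes, 30 components, 15 neighbours, Leiden resolution 1) and named from 22 marker lists. A rule that a related class with more markers among the top 10 genes takes the name was added after seeing the data, and it moved cluster 4 (117 and 439 shallow cells) from Kupffer-like to macrophage-like.

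UMIs were summed per library and class. Ratios were given for genes that averaged 20 CPM or more over the groups compared (in the lymphoid comparison, that reached it on either side), and 1.5-fold is a size rule, not a test. The code was tested on simulated counts. Members and lists were chosen with earlier results of these data known. Genes named with values were the members past 1.5-fold between the libraries, the 8 highest and 4 lowest in the lymphoid and the Gpnmb comparison of the Trem2+/+ library, those whose highest class was neither macrophage-like nor Kupffer-like, the transcription factors, pump paralogues and, of the other lists, the 2 highest and 2 lowest. Others were named as examples of a role after their values were seen. Alternatives covered cell filters, doublet scores, clustering, scaling, means over cells, low-value filters, fold limits and thinning depth. Gpnmb bins with as few as 15 cells were allowed after seeing that the highest Trem2-/- bin was small.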

Additional observations from a re-analysis of the deposited data

How the results depend on the processing

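No paired analysis was possible because each group has 1 library. The members' median ratio between the genotypes in macrophage-like cells stayed between -0.16 and -0.02 over 16 settings, and their Gpnmb median between 0.31 and 0.58 (Trem2+/+) and 0.36 and 0.51 (Trem2-/-). The count of 2 lower members was 1 with all deposited barcodes, with means over cells, with clusters weighted equally and in cluster 11 alone. Ctsk fell under 20 CPM each time, and with means over cells Cd164 was higher. The count was 4 in cluster 8 alone, and 0 with a 100 CPM filter, which removes both genes. With a stricter cell filter and without cluster 4, Ctsl (-0.69 and -0.60) was lower beside Ctsk and Atp6v0d2. With a smaller fold limit 9 were lower and 1 higher. In Kupffer-like cells the count of 1 lower was 0 with a stricter cell filter, at Leiden resolution 2, with the 100 CPM filter and at 2-fold, 3 with means over cells (1 higher) and 2 with the smaller fold limit (2 higher); Gaa turned to 0.18 with all barcodes and to 0.12 at resolution 0.5. In monocyte-like cells 1 was higher with all barcodes, 2 with each library clustered alone, and 2 with the smaller limit (1 lower). At resolution 0.5, where no macrophage-like class formed, the median was -0.21 and 8 were lower. The share of all genes in that setting is not given, so the count of 8 cannot be read against one. Nor did the Trem2-/- library alone give a macrophage-like class, so those settings have no value for it.

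The macrophage over lymphoid median was, in the Trem2-/- library, 2.46 with the stricter filter, 1.99 without abundant gene classes in the total, 2.44 with all genes centred, 1.98 with means over cells, 2.46 with the 100 CPM filter and 1.82 with clusters weighted equally. In the Trem2+/+ library it was 2.37 without those gene classes, 2.83 centred, 2.31 with means, 2.21 with equal clusters and 2.53 for cluster 8 alone. Weighting clusters equally turned the Trem2-/- Gpnmb ratio of Atp6v1h to -0.065 and the equal-bin ratio of Glb1 to -0.11. With macrophage-like, Kupffer-like and monocyte-like cells pooled, Atp6v0d2 stood at -1.99 and Ctsk at -2.20 between the genotypes. In that pool Ctsk averaged 13.6 CPM, under the limit of 20 CPM, so it was not counted, while Ctsd (-0.75) was counted as lower. The cause was not tested except where stated. The cluster, pooled and Gpnmb-threshold alternatives were chosen after seeing the data. Depth limits sparse members such as Ctsk, with 29 Trem2-/- UMIs, and Ctsf, with 17.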

Other observations

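Outside macrophage-like, Kupffer-like and monocyte-like cells, 9 member-and-class pairs differed by 1.5-fold or more between the libraries. In B cell-like cells Scarb2, the lysosomal receptor of beta-glucocerebrosidase, stood at 43.7 CPM in the Trem2-/- and 23.9 CPM in the Trem2+/+ library (log2 ratio 0.87), and the peptidase Tpp1 at 34.4 and 22.5 CPM (0.61). In NK/ILC1-like cells Tpp1 stood at 53.3 and 26.3 CPM (1.02), and in T cell-like cells Lamp2 at 34.8 and 19.6 CPM (0.83). In cDC2-like cells Tfeb stood at 64.1 and 39.6 CPM (0.69) and Tfe3 at 26.0 and 41.0 CPM (-0.66). In endothelial-like cells the calcium channel Mcoln1 stood at 22.5 and 35.7 CPM (-0.67). In neutrophil-like cells the ceramidase Asah1 stood at 51.6 and 23.3 CPM (1.15) and Gusb at 16.6 and 28.7 CPM (-0.79). Of all genes tested, between 1.18% (lower, endothelial-like) and 5.28% (lower, neutrophil-like) passed the same limit in the class and direction of these pairs. Members tested ranged from 36 (T cell-like) to 45 (cDC2-like and neutrophil-like) per class. At most 2 of them passed in a class and direction. The pairs are therefore listed as single values and not read as a result about the members. The intervals of Tpp1 in B cell-like cells, Tfe3 and Gusb included 0. In T cell-like cells the members had a median of 0.17, against 0.10 for all genes.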
